A study of Saccharomyces cerevisiae with 78 samples.

Results

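M490-F09 is a clone of the budding yeast Saccharomyces cerevisiae that expressed a fusion gene, a coding sequence joined from parts of different yeast genes, from a plasmid. It was 1 of 25 such clones whose polyadenylated RNA was sequenced, and its 3 libraries are set here against the 3 libraries of cells with the empty plasmid (Control), out of 78 libraries in 26 groups. All libraries titled with the clone's name and all titled as control plasmid were taken, and every gene with its own count was compared. The 72 libraries of the other 24 clones served to show how far a change was shared.

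All groups had the host BY4742, a haploid laboratory strain of the alpha mating type that cannot make histidine, leucine, lysine or uracil. M490-F09 cells carried the plasmid with the fusion gene, and Control cells carried the plasmid with the galactose-inducible GAL1 promoter and no fusion gene. Both were grown to mid-logarithmic phase in galactose medium without uracil, as 3 separate transformants each. Which yeast genes the M490-F09 fusion joins is not stated in the labels, and each fusion was tested as 1 clone. Replicates 1 and 2 of every group belonged to a first set of libraries, and replicate 3 to a resubmitted set. In the library names, Control replicates 1 and 2 share a plasmid code that differs from the code of Control replicate 3. The row letter in the library names, taken here as a plate row, was A for M490-F09 in both sets. For Control it was E in the first and C in the resubmitted set. Such a row and the plasmid therefore cannot be told apart in the comparison with Control. The 5 other clones of first-set row A (M490-A12, M491-C03, M491-C04, M491-C06 and M491-C07) also shared a row with M490-F09 in the resubmitted set, and they served as a second comparison group.

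Several of the genes described below serve the supply of metals or the use of fatty acids. Budding yeast senses zinc with the transcription factor Zap1, which is active when zinc is scarce and switches on zinc importers, the vacuolar zinc exporter and its own gene. Copper is sensed by Mac1, which switches on the copper importer Ctr1 and the surface reductases Fre1 and Fre7 when copper is scarce, and iron by Aft1 and Aft2, which switch on the iron oxidase and permease Fet3 and Ftr1 and the siderophore carriers. Peroxisomes are the organelles in which yeast breaks down fatty acids, with enzymes that are induced by oleate and by the loss of glucose.

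The share of counts on the constructs was examined first, since no other row of the files counts the constructs. The row that pools all construct sequences held 2.69%, 2.66% and 2.05% of the counts in M490-F09 libraries, against 0.470%, 0.428% and 0.339% in Control libraries. The M490-F09 libraries thus lay above the Control libraries in both sets, with means of 2.47% ± 0.36 in M490-F09 and 0.412% ± 0.0665 in Control (SD, n = 3 each; exact permutation test, two-sided, p = 0.1, the smallest that 3 against 3 libraries allow). Among the 26 groups M490-F09 ranked 1, followed by M490-A12 with 2.47%, 2.52% and 1.82%. The counted construct sequences had 525 bases for M490-F09 and 453 bases for M490-A12. Control, which had no fusion gene, ranked 22, above the clones M491-F10, M495-F02, M497-F10 and M492-E01, so the row also counts reads that no fusion gene gave. The counted sequences include none named for M497-F10 or M492-E01, so the ranks of these clones do not measure their constructs. They also include PP2061, a sequence of 66 bases not named for a clone. The source of the Control reads was not tested. Because the row pools all constructs, it does not show whose construct the reads came from.

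Total counts were 18981572, 15181045 and 12495326 in M490-F09 libraries, against 14726330, 15351634 and 13086342 in Control libraries. Levels are given as CPM, the usual scaling of counts to library size, and a gene was called changed at an adjusted p below 0.05 in edgeR's quasi-likelihood test with Benjamini-Hochberg adjustment, the source of every adjusted p given here. A value in parentheses beside an adjusted p or the name of a comparison group is a log2 fold change of M490-F09, over Control where no other group is named. Transcripts of the alpha mating type were present in both groups, with the alpha pheromone gene MF(ALPHA)1 at 467, 430.0 and 242 CPM in M490-F09 cultures, against 865, 788 and 304 CPM in Control cultures. It was lower in M490-F09 (-0.74, adjusted p = 0.00901), though not past the threshold without Control replicate 1 or M490-F09 replicate 3. Against the row A clones 0 of the 7 alpha genes passed, where 1.34% of all genes did. The GAL1 gene, which shares its promoter with the plasmid, had 19907, 22433 and 25207 CPM in M490-F09 cultures, against 18051, 20985 and 21418 CPM in Control cultures. Its levels overlapped between the groups and did not pass the test (0.16, adjusted p = 0.291). In RNA from whole cultures, fewer cells that express a gene and less RNA per cell cannot be told apart.

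M490-F09 differed from Control at 837 of 5212 genes (16.1%), of which 448 were higher (8.6%) and 389 lower (7.46%). Most of these differences were small, with a median absolute log2 fold change of 0.30 among the called genes. Only 6 genes rose by at least 2-fold (0.115% of those tested), namely ADH4, ZPS1, ATO2, POX1, ZRT1 and CIT3, and 6 fell by at least 2-fold (0.115%), PHO3, FET3 and the joined row of ANB1 and HYP2 among them. In 463 of the 837 genes the 3 M490-F09 values did not overlap the 3 Control values, and 829 had the same sign in both library sets. The count fell to 458 without M490-F09 replicate 3, to 483 without Control replicate 3 and to 558 without M490-F09 replicate 1. The number of higher calls was 232, 307 and 316 in the same order, and 221 without Control replicate 1. The number of lower calls was 226, 176 and 242 in the same order. Scaling by RLE size factors moved the balance of the calls to 339 higher and 466 lower.

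The other clones gave a narrower picture. Against the mean of the other 24 clones, M490-F09 was higher at 248 genes (4.76%) and lower at 326 genes (6.25%), 574 in all (11%). At least 2-fold changes there were ADH4, ZPS1, ZRT1 and ZAP1, all higher (0.0767%), with 0 lower. Against the 5 other clones of row A it was higher at 36 genes (0.691%) and lower at 34 genes (0.652%), 70 in all (1.34%). At least 2-fold changes in this comparison were ADH4, ZPS1 and ZRT1, all higher (0.0576%), with 0 lower. Leaving out M490-F09 replicate 1, 2 or 3 brought the 574 genes to 169, 231 or 218. The 70 genes became 25 without replicate 1 and 27 without replicate 2, and the 34 lower ones among them became 21 without replicate 3. Of the 448 genes higher than in Control, 153 (34.2%) were also higher than in the other 24 clones and 21 (4.69%) higher than in the row A clones. Of the 389 lower genes, 223 (57.3%) were also lower than in the other 24 clones and 14 (3.6%) lower than in the row A clones. The 3 comparisons share the M490-F09 libraries, so their calls are not independent of each other. Genes past the threshold in all 3 comparisons numbered 35, with 21 higher and 14 lower.

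**Figure D1:**
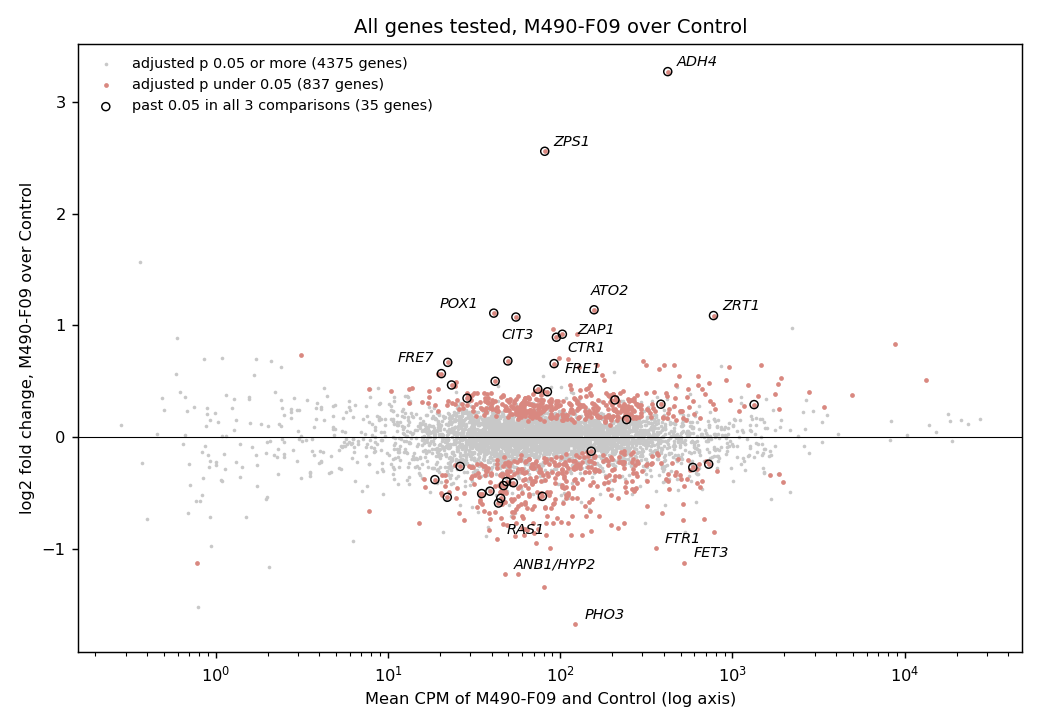
Log2 fold change of M490-F09 over Control (vertical axis) against the mean level in CPM over the libraries (horizontal log axis) for 5212 genes, with the 837 genes past an adjusted p of 0.05 in red, the other 4375 in grey, and black circles on the 35 genes past it in all 3 comparisons. ADH4 and ZPS1 lie highest, at log2 fold changes of 3.27 and 2.56, and most red points lie close to 0.

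Genes of the zinc response gave the most distinct signal of the clone. In M490-F09 the lowest library of ADH4, ZPS1, ZRT1 and ZRT3 lay above the highest of all 75 other libraries of the series, which held for these 4 genes alone, and for 0 genes below all others. ADH4 encodes an alcohol dehydrogenase that Zap1 induces when zinc is scarce. It had 906, 662 and 718 CPM in M490-F09 cultures, against 78.1, 79.9 and 80.1 CPM in Control cultures. No Control library came near the M490-F09 libraries, and the means were 762 ± 128 CPM in M490-F09 and 79.3 ± 1.10 CPM in Control (SD, n = 3 each). ADH4 rose 9.65-fold (log2 fold change 3.27, SE 0.17, adjusted p = 5.79e-23), and it was 8.98-fold higher than the mean of the other 24 clones and 6.74-fold higher than the row A clones. ZPS1, a cell-surface protein related to zinc metalloproteases that is induced by low zinc, had 148, 105 and 165 CPM in M490-F09 cultures, against 23.5, 21.6 and 25.2 CPM in Control cultures. The groups were far apart, a 5.89-fold rise (log2 fold change 2.56, SE 0.14, adjusted p = 2.24e-22), and ZPS1 was also higher than in the other 24 clones (log2 fold change 2.47) and the row A clones (2.33).

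The importer and the regulator moved less. ZRT1, the high-affinity zinc importer of the plasma membrane, had 1161, 1021 and 986 CPM in M490-F09 cultures, against 536, 523 and 429 CPM in Control cultures. All 3 M490-F09 libraries lay above all Control libraries (log2 fold change 1.09, SE 0.22, adjusted p = 0.000432), and the log2 fold change was 1.56 over the other 24 clones and 1.31 over the row A clones. ZAP1, the zinc-sensing activator itself, had 151, 134 and 118 CPM in M490-F09 cultures, against 77.7, 83.5 and 52.5 CPM in Control cultures. Here too the groups did not overlap (log2 fold change 0.92, SE 0.13, adjusted p = 1.95e-06), with log2 fold changes of 1.10 over the other 24 clones and 0.90 over the row A clones. ZRT3, which releases zinc from the vacuole, had 257, 222 and 214 CPM in M490-F09 cultures, against 172, 177 and 204 CPM in Control cultures. Its M490-F09 values were all above the Control values, with the narrowest gap in the resubmitted set (log2 fold change 0.33, SE 0.07, adjusted p = 0.000432). ZRT3 had a log2 fold change of 0.46 among first-set libraries and 0.07 in the resubmitted set, which has a single library of each group. Its call against Control was lost in a fit of the 6 libraries alone (adjusted p = 0.0687). ADH4, ZPS1, ZRT1 and ZAP1 passed the test against Control under each of the 14 other settings tried.

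Over all genes 8.6% were called higher than in Control and 7.46% lower. Of the 8 genes of zinc uptake and storage, 2 rose (ZRT1 and ZRT3) and 1 fell, with 5 not past the threshold. The median log2 fold change of these 8 was 0.13, against 0.00 over all genes. Relative to the other 24 clones, 4 were higher and 0 lower, ZRT2 and FET4 in addition to ZRT1 and ZRT3, and against the row A clones 2 were higher. The shares of all genes called higher in these comparisons were 4.76% and 0.691%. ZRT2, the low-affinity zinc importer, had 291, 281 and 237 CPM in M490-F09 cultures, against 246, 249 and 179 CPM in Control cultures. These values overlapped, and ZRT2 did not pass against Control (0.27, adjusted p = 0.0808) but passed against the other 24 clones (0.40, adjusted p = 0.000367). FET4, a low-affinity importer of iron, zinc and copper, had 322, 299 and 355 CPM in M490-F09 cultures, against 341, 344 and 274 CPM in Control cultures, an overlap of the groups (0.05, adjusted p = 0.898). Over the other 24 clones FET4 was higher (0.52, adjusted p = 0.00641), although not without M490-F09 replicate 3 (log2 fold change 0.33, adjusted p = 0.255). The gene that fell was COT1, which moves zinc and cobalt into the vacuole (-0.22, adjusted p = 0.0258). COT1 lost its call without any of 5 of the 6 libraries (adjusted p = 0.053 to 0.0989) and kept it only without Control replicate 3. The other vacuolar zinc importer ZRC1 (-0.22, adjusted p = 0.0756) and the secretory-pathway zinc transporters MSC2 (0.17, adjusted p = 0.138) and ZRG17 (0.09, adjusted p = 0.272) did not pass.

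**Figure D2:**
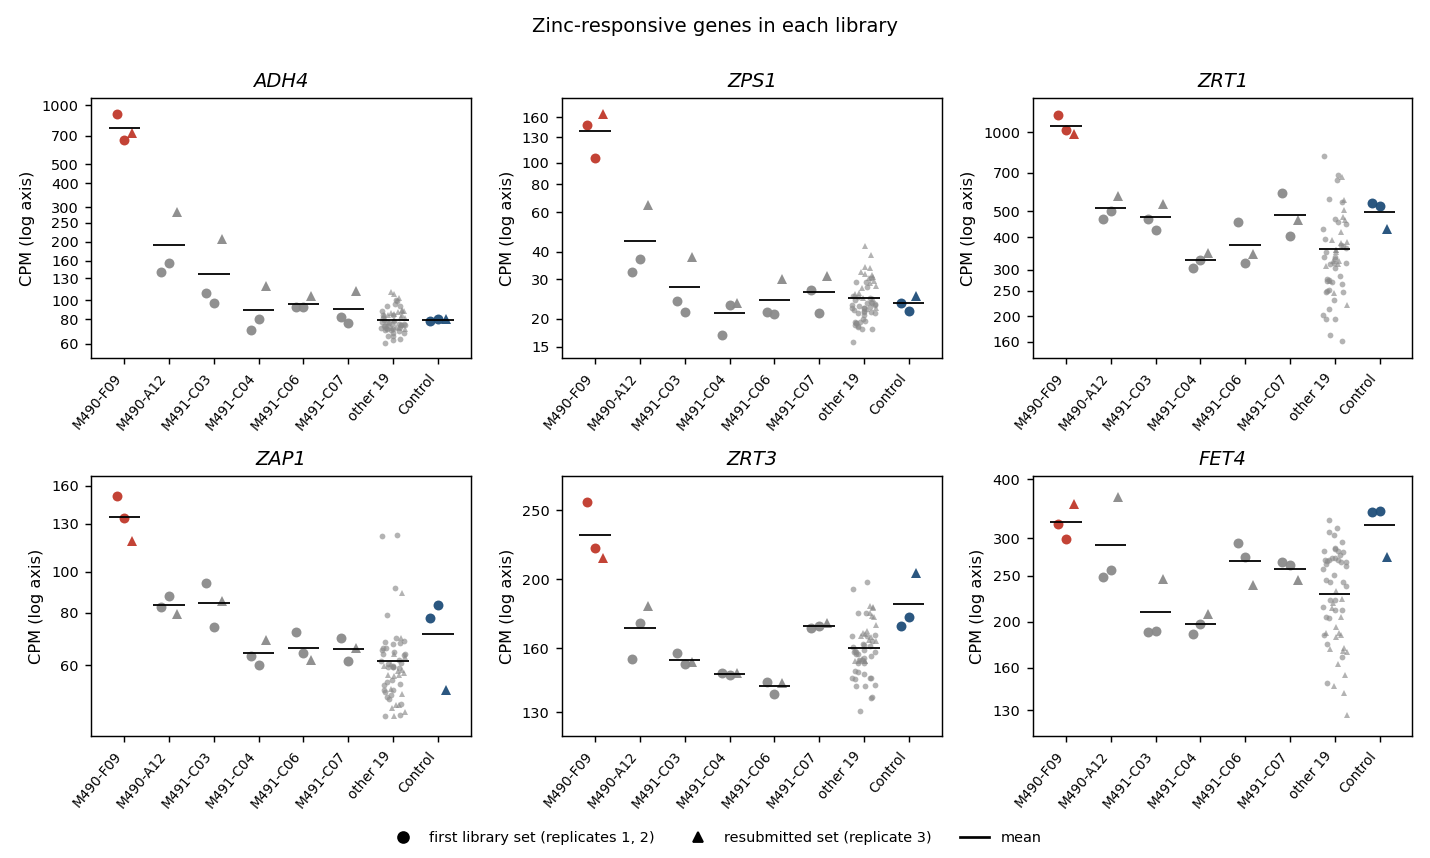
Level in CPM (log axis) of ADH4, ZPS1, ZRT1, ZAP1, ZRT3 and FET4 in each library of M490-F09 (red), the 5 other clones of row A, the other 19 clones (grey) and Control (blue), with circles for the first library set, triangles for the resubmitted set and lines for means. The M490-F09 libraries stand above all others for ADH4, ZPS1, ZRT1 and ZRT3, and M490-A12 and M491-C03 are the next highest groups for ADH4, while the FET4 values of M490-F09 overlap those of Control.

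The 14 other genes that Zap1 is known to induce were divided. ADH4, ZPS1, ZAP1 and TSA1 rose, IZH1 fell and 9 did not pass, with a median log2 fold change of 0.03. Of all genes 8.6% rose and 7.46% fell. TSA1, a cytosolic peroxiredoxin, had 972, 1002 and 599.8 CPM in M490-F09 cultures, against 701, 724 and 637 CPM in Control cultures, so that the M490-F09 library of the resubmitted set lay below all Control libraries (0.29, adjusted p = 0.00618). The call of TSA1 was lost without M490-F09 replicate 1 (adjusted p = 0.0517), M490-F09 replicate 2 (0.0794) or Control replicate 1 (0.068). IZH1, a membrane protein of zinc homeostasis, had 40.4, 39.95 and 43.8 CPM in M490-F09 cultures, against 51.7, 48.7 and 107 CPM in Control cultures. All M490-F09 values of IZH1 were below those of Control (-0.65, adjusted p = 0.0415), but Control replicate 3 stood apart, and without it the change did not pass (adjusted p = 0.249), nor without any single M490-F09 library (0.0534 to 0.209). Its relative IZH4 did not pass (-0.85, adjusted p = 0.0903). The phospholipid genes of the list did not pass either, among them DPP1, a vacuolar lipid phosphatase (0.12, adjusted p = 0.104), PIS1, the phosphatidylinositol synthase (-0.14, adjusted p = 0.0557), and EKI1, the ethanolamine kinase (-0.22, adjusted p = 0.163). Over the row A clones, 4 of the 14 genes were higher, ADH4, ZPS1, ZAP1 and DPP1, and the call of DPP1 was lost without M490-F09 replicate 1 or 2. Of the genes that Zap1 represses, the more abundant joined row of ADH1 and ADH2 (-0.04, adjusted p = 0.857) and ADH3 (-0.07, adjusted p = 0.652), which encode abundant zinc-containing alcohol dehydrogenases, did not pass.

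RTC4, whose molecular role is little known, had 69.6, 53.01 and 60.2 CPM in M490-F09 cultures, against 34.4, 37.1 and 43.6 CPM in Control cultures. It did not overlap Control (log2 fold change 0.68, SE 0.09, adjusted p = 9.03e-07), but it overlapped the other clones, whose highest library had 63.3 CPM. The log2 fold change of RTC4 was 0.66 over the other 24 clones and 0.63 over the row A clones.

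A few other clones showed parts of this pattern, measured against the same Control libraries. ADH4 was at 141, 155 and 283 CPM in M490-A12 (log2 fold change 1.25, adjusted p = 1.17e-07) and at 109, 96.5 and 206 CPM in M491-C03 (0.76, adjusted p = 0.000737). In both clones the resubmitted library was the highest, and in both all 3 values were above the Control values. ZPS1 was raised in M490-A12 (log2 fold change 0.89) and M495-F02 (0.46, adjusted p = 0.005), while ZRT1 (0.04) and ZRT3 (-0.11) of M490-A12 did not pass. M492-E11 had a log2 fold change of 0.64 for ZAP1 (adjusted p = 0.0033). The differences between M490-F09 and these single clones were not tested.

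Of the genes tied to copper, CTR1, FRE1 and FRE7 rose. CTR1, the high-affinity copper importer, had 131, 116.5 and 123 CPM in M490-F09 cultures, against 62.9, 67.9 and 68.8 CPM in Control cultures. The groups were clearly separated (log2 fold change 0.89, SE 0.07, adjusted p = 5.76e-14), and CTR1 was also higher than in the other 24 clones (log2 fold change 0.75) and the row A clones (0.63). FRE1, the surface reductase for copper and iron, had 112, 99.1 and 127 CPM in M490-F09 cultures, against 68.1, 66.3 and 80.1 CPM in Control cultures, with no overlap (log2 fold change 0.66, SE 0.06, adjusted p = 2.1e-12). FRE7, a copper-regulated reductase, had 26.4, 27.3 and 28.1 CPM in M490-F09 cultures, against 16.7, 16.1 and 18.7 CPM in Control cultures, again with no overlap (log2 fold change 0.67, SE 0.10, adjusted p = 2.55e-06). The log2 fold changes over the other 24 clones and the row A clones were 0.63 and 0.54 for FRE1 and 0.51 and 0.37 for FRE7. In M490-A12 FRE1 was at 107, 101 and 129 CPM and FRE7 at 24.6, 21.7 and 30.6 CPM, overlapping M490-F09 for both genes. By mean level in M490-F09 FRE1 ranked 1, and CTR1 and FRE7 each ranked 2, among the 26 groups. The group above M490-F09 for CTR1 was M490-A12, with 127, 133 and 130 CPM (log2 fold change 0.97 over the shared Control libraries, adjusted p = 6.46e-15), and M490-A12 also had a higher FRE1 than Control (0.65, adjusted p = 6.09e-12). Against the same Control libraries CTR1 was higher in M491-C07 (0.40), M495-F02 (0.31) and M491-D09 (0.21) too, and FRE1 in M495-F02 (0.24). CTR1, FRE1 and FRE7 passed against Control under each of the 14 other settings.

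Of the 8 genes of copper uptake and handling, CTR1 and FRE7 rose, CTR2 fell and 5 did not pass, with a median log2 fold change of 0.01. Over all genes 8.6% were called higher and 7.46% lower. CTR2, which releases copper from the vacuole, had 117, 112 and 92.7 CPM in M490-F09 cultures, against 142, 139.6 and 108 CPM in Control cultures, with a small overlap across the sets (-0.27, adjusted p = 0.00487). MAC1, the copper sensor (-0.07, adjusted p = 0.583), and SOD1, the copper-zinc superoxide dismutase (-0.07, adjusted p = 0.626), both chosen after their values were seen, did not pass against Control. SOD1 was lower than in the other 24 clones (-0.21, adjusted p = 0.0297) and the row A clones (-0.28, adjusted p = 0.0227), but in neither comparison without M490-F09 replicate 1 (adjusted p = 0.0627 and 0.059) or replicate 3 (0.457 and 0.3).

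A minority of the iron genes fell against Control, FET3 and FTR1 among them. FET3, the multicopper oxidase of high-affinity iron uptake, had 374, 378 and 227 CPM in M490-F09 cultures, against 754, 776 and 638 CPM in Control cultures. All M490-F09 values were below all Control values (log2 fold change -1.13, SE 0.22, adjusted p = 0.000385), while FET3 did not pass against the other 24 clones (-0.38, adjusted p = 0.135) or the row A clones (-0.03, adjusted p = 0.956). FTR1, its partner permease, had 267, 259 and 194 CPM in M490-F09 cultures, against 526, 553 and 356 CPM in Control cultures. It fell with no overlap (log2 fold change -0.997, SE 0.19, adjusted p = 0.000236) and likewise did not pass against the other 24 clones (-0.21, adjusted p = 0.361). ARN1, a siderophore carrier, had 117, 110.4 and 92.2 CPM in M490-F09 cultures, against 187, 196 and 140.4 CPM in Control cultures (log2 fold change -0.71, SE 0.15, adjusted p = 0.00103), and its difference from the other 24 clones was -0.22, adjusted p = 0.208. Over all genes 8.6% rose and 7.46% fell. Among the 13 genes of reductive iron uptake, FRE1 rose and FET3, FTR1, MRS4 and SMF3 fell, with a median of -0.04. The lower members numbered 2 without Control replicate 2 or M490-F09 replicate 3, since MRS4, a mitochondrial iron carrier, and SMF3, a vacuolar metal exporter, lost their calls. Of the 6 siderophore and FIT genes, ARN1, ARN2 and ENB1 fell, and only 1 did so without Control replicate 1, Control replicate 2, M490-F09 replicate 2 or M490-F09 replicate 3. All 6 had a negative log2 fold change, with a median of -0.43. Their summed levels were 2819, 2786 and 1752 CPM in M490-F09 libraries, against 3921, 4383 and 1416 CPM in Control libraries. The sum was thus lower in M490-F09 in the first set and higher in the resubmitted set. Against the other 24 clones and against the row A clones, FRE1 was the only member of either list past the threshold. Of all genes 11% and 1.34% passed there.

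**Figure D3:**
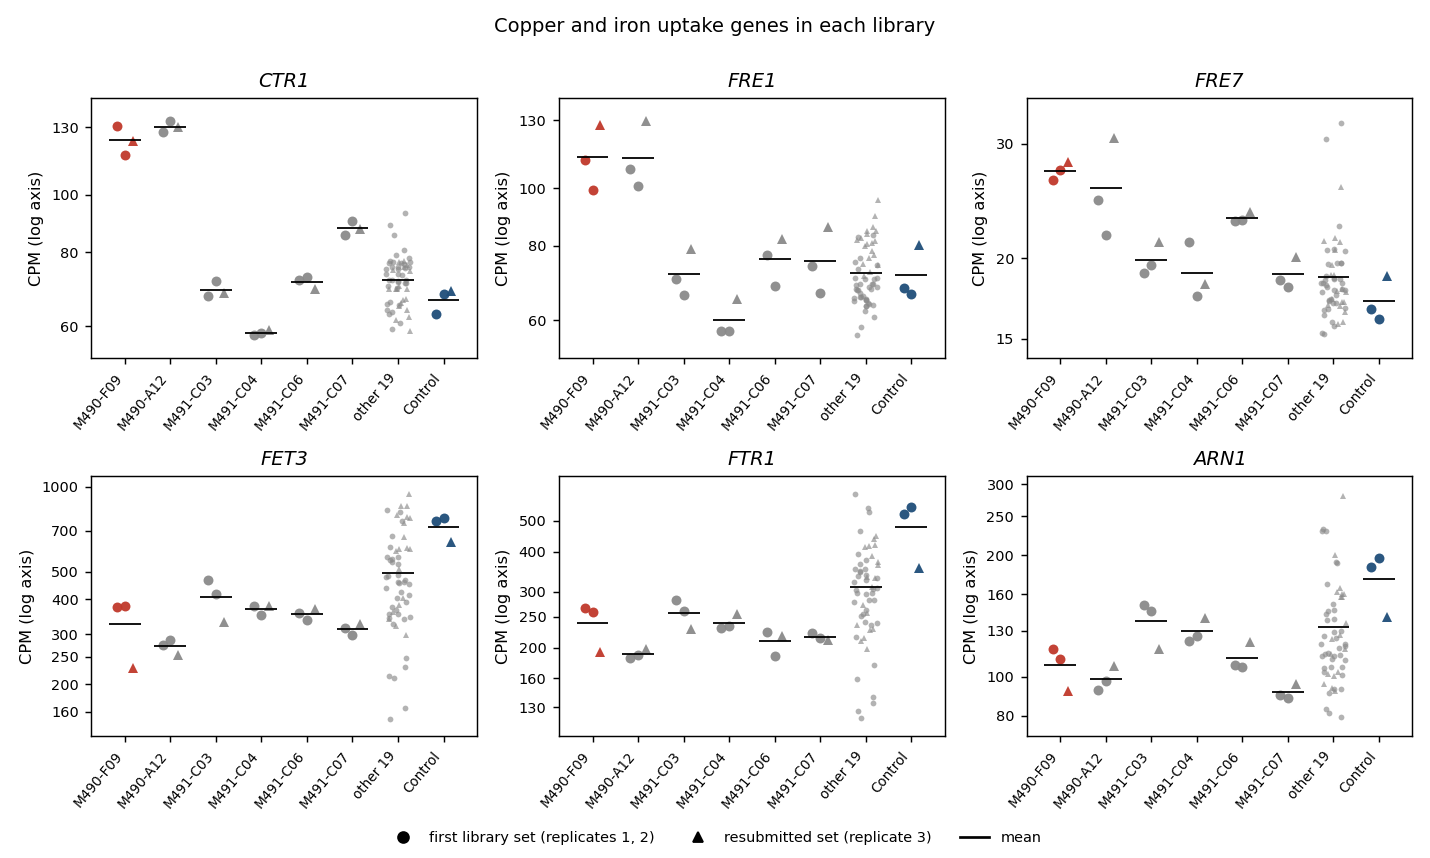
Level in CPM (log axis) of CTR1, FRE1, FRE7, FET3, FTR1 and ARN1 in each library of M490-F09 (red), the 5 other clones of row A, the other 19 clones (grey) and Control (blue), with circles for the first set, triangles for the resubmitted set and lines for means. M490-F09 lies above Control for CTR1, FRE1 and FRE7, with M490-A12 beside it for all of these, and below Control but among the other clones for FET3, FTR1 and ARN1.

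Some peroxisomal genes were higher than in Control. POX1, the acyl-CoA oxidase that starts peroxisomal beta-oxidation, had 55.6, 59.6 and 53.3 CPM in M490-F09 cultures, against 26.9, 28.6 and 22.6 CPM in Control cultures. Each M490-F09 value was above each Control value (log2 fold change 1.11, SE 0.14, adjusted p = 1.27e-07), and POX1 was higher than in the other 24 clones (0.81) and the row A clones (0.68). ECI1, an enoyl-CoA isomerase needed for unsaturated fatty acids, had 24.3, 26.1 and 22.7 CPM in M490-F09 cultures, against 18.2, 17.7 and 13.4 CPM in Control cultures, also without overlap (log2 fold change 0.57, SE 0.11, adjusted p = 0.000342; row A clones 0.42). Where 8.6% of all genes rose, 6 of 14 beta-oxidation enzymes rose and 0 fell, with a median log2 fold change of 0.22. The other 4 were SPS19, a dienoyl-CoA reductase (0.35, adjusted p = 0.00816), MDH3, the peroxisomal malate dehydrogenase (0.24, adjusted p = 0.00654), FAA2, an acyl-CoA synthetase (0.28, adjusted p = 0.0347), and FOX2, the multifunctional enzyme (0.24, adjusted p = 0.0336). FAA2 lost its call without any of the 6 libraries (adjusted p = 0.0558 to 0.129), and FOX2 kept its call only without Control replicate 2. The count of higher enzymes was 3 without M490-F09 replicate 2 or 3, and 4 without Control replicate 1, Control replicate 3 or M490-F09 replicate 1. POT1, the thiolase that ends the cycle (0.28, adjusted p = 0.0516), and CTA1, the peroxisomal catalase (-0.12, adjusted p = 0.401), did not pass. Relative to the other 24 clones 5 enzymes were higher, POX1, ECI1, FAA2, IDP3 and PCD1. The calls of FAA2, IDP3 and PCD1 there were lost without any single M490-F09 library. IDP3 and PCD1 had not passed against Control. Against the row A clones 2 enzymes were higher, POX1 and ECI1. The shares of all genes called higher in these comparisons were 4.76% and 0.691%.

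POX1 was also higher than in Control in M495-F02 (log2 fold change 1.15), M490-A12 (0.84), M491-C04 (0.59), M491-C09 (0.46) and M491-F10 (0.43), measured against the same Control libraries. Some genes for the transport of fatty acids and acetyl units rose as well. YAT2, a cytosolic carnitine acetyltransferase, had 444, 407 and 286 CPM in M490-F09 cultures, against 296, 291 and 155 CPM in Control cultures. Within each set the M490-F09 values were higher, although the resubmitted M490-F09 library lay below the first-set Control libraries (log2 fold change 0.64, SE 0.15, adjusted p = 0.00245). CAT2, the peroxisomal and mitochondrial carnitine acetyltransferase, had 182, 184 and 99.03 CPM in M490-F09 cultures, against 123, 120.2 and 59.8 CPM in Control cultures, with the same shift between sets (log2 fold change 0.63, SE 0.11, adjusted p = 5.93e-05). Of the 8 genes of peroxisomal and carnitine transport 5 rose and 0 fell, namely YAT2, CAT2, YAT1, AGP2, the plasma membrane carnitine carrier, and PXA1, a subunit of the peroxisomal fatty acid transporter. The median of the 8 was 0.36. Relative to the other 24 clones 6 were higher, CRC1 in addition to these 5, and against the row A clones 0 passed. Of all genes 4.76% and 0.691% were higher in these comparisons. Over the other 24 clones only YAT2 and CAT2 kept the call without each M490-F09 library. AGP2 and PXA1 lost it without any single one, YAT1 kept it only without replicate 1, and CRC1 lost it without replicate 2. Against Control only 2 of the 8 passed without Control replicate 3, and 3 passed without Control replicate 1, M490-F09 replicate 2 or M490-F09 replicate 3. ADR1, the activator of many of these genes when glucose is absent, had 468, 468 and 423 CPM in M490-F09 cultures, against 313, 339 and 237 CPM in Control cultures, a rise with no overlap (log2 fold change 0.61, SE 0.14, adjusted p = 0.00253; other 24 clones 0.34). Of the 7 oleate and Adr1 regulators, ADR1 included, 0 passed against the row A clones, where 1.34% of all genes did. Of 29 peroxins, the proteins that build the organelle, 3 rose and 0 fell, a share near the 8.6% of all genes called higher. PEX18, which helps import PEX7 cargo, had 32.6, 32.3 and 31.7 CPM in M490-F09 cultures, against 29.3, 26.9 and 19.8 CPM in Control cultures and kept its call without each of the 6 libraries (log2 fold change 0.35, SE 0.08, adjusted p = 0.00251), whereas its call over the row A clones was lost without any single M490-F09 library, and PEX30 and PEX2 lost theirs without M490-F09 replicate 3 or Control replicate 1.

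**Figure D4:**
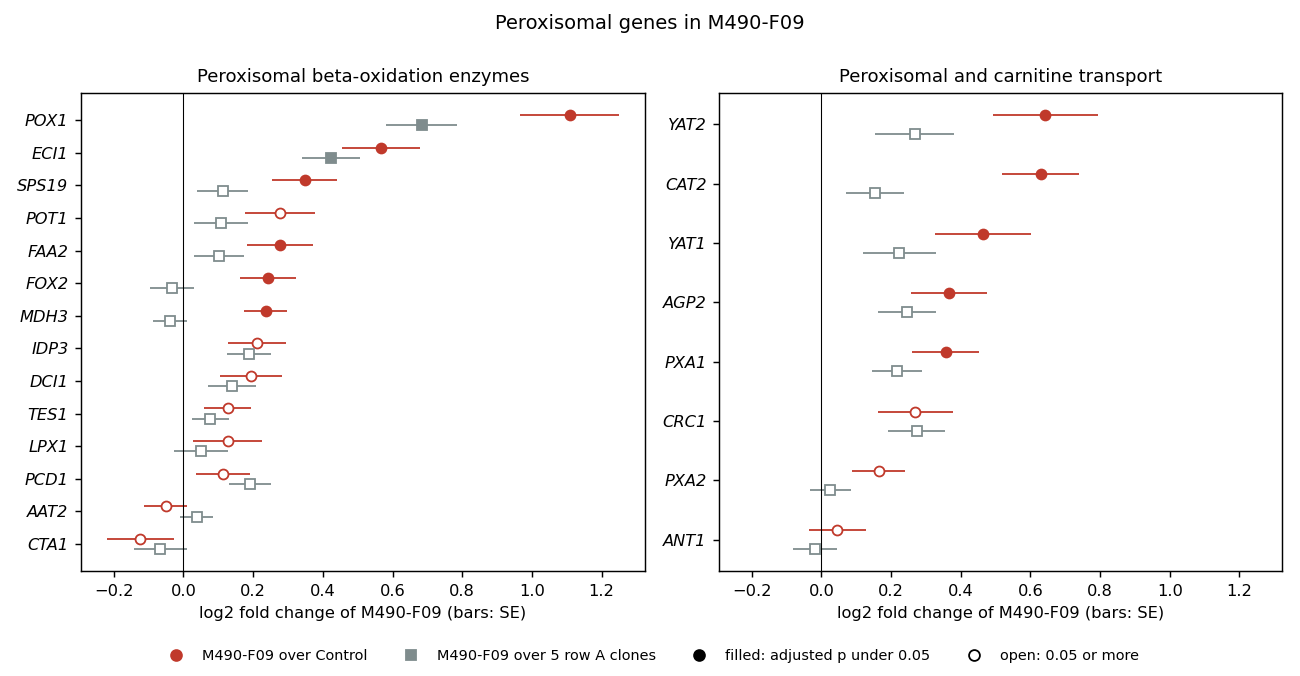
Log2 fold change with SE (horizontal axis) of 14 beta-oxidation enzymes and 8 transport genes, for M490-F09 over Control (red circles) and over the 5 other clones of row A (grey squares), filled where the adjusted p was below 0.05. POX1 and ECI1 are filled in both comparisons, and all 8 transport genes are open over the row A clones.

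Genes of acetate, citrate and sugar metabolism included further large changes. CIT3, a mitochondrial citrate and methylcitrate synthase, had 80.6, 80.8 and 62.8 CPM in M490-F09 cultures, against 39.8, 43.01 and 24.7 CPM in Control cultures. The groups did not overlap (log2 fold change 1.07, SE 0.16, adjusted p = 2.55e-06), and the log2 fold change was 0.80 over the other 24 clones. Over the row A clones it was 0.43, adjusted p = 0.0415, a call lost without any single M490-F09 library. ATO2, a plasma membrane protein of ammonium export and acetate uptake, had 154, 178 and 329 CPM in M490-F09 cultures, against 95.3, 95.1 and 91.5 CPM in Control cultures. It was highest in the resubmitted M490-F09 library, above all Control libraries in each case (log2 fold change 1.14, SE 0.20, adjusted p = 9.38e-05). The resubmitted library was also the highest in each other row A clone, among them M490-A12 (132, 129 and 258 CPM) and M491-C06 (117, 94.2 and 262.5 CPM). Over the row A clones ATO2 had 0.59, adjusted p = 0.0225, a call lost without M490-F09 replicate 2 (adjusted p = 0.117) or 3 (0.276). By set, the log2 fold change of ATO2 was 0.80 (first) and 1.85 (resubmitted), the latter from a single library of each group. HXK1, a hexokinase that glucose represses, had 9439.9, 10465 and 14101 CPM in M490-F09 cultures, against 6679, 7561 and 4703 CPM in Control cultures, without overlap (0.83, adjusted p = 0.0229), but it did not pass without Control replicate 3 (adjusted p = 0.172), M490-F09 replicate 3 (0.134) or Control replicate 1 (0.0513). By set, HXK1 had 0.48 (first) and 1.58 (resubmitted), again with a single resubmitted library of each group. Over the row A clones HXK1 did not pass (0.20, adjusted p = 0.671). CIT2, the peroxisomal citrate synthase, rose (0.63, adjusted p = 0.012) but not without Control replicate 3 (adjusted p = 0.14) or M490-F09 replicate 3 (0.0538). Of 20 genes of the TCA cycle 6 rose and 1 fell, where 8.6% and 7.46% of all genes did. The higher ones included LSC2, a subunit of succinyl-CoA ligase, with 682, 692 and 529.6 CPM in M490-F09 cultures, against 496, 506 and 413 CPM in Control cultures (log2 fold change 0.43, SE 0.07, adjusted p = 9.65e-06). The TCA count was 3 without Control replicate 1, Control replicate 2, M490-F09 replicate 1 or M490-F09 replicate 3. Against the row A clones CIT3 was the only TCA gene past the threshold, where 1.34% of all genes passed.

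BIO2, the biotin synthase, had 114, 114 and 137 CPM in M490-F09 cultures, against 78.5, 66.6 and 78.6 CPM in Control cultures. BIO2 rose with no overlap (log2 fold change 0.71, SE 0.11, adjusted p = 4.27e-06) and did not pass against the row A clones (0.11, adjusted p = 0.54). AQR1, an efflux carrier of the plasma membrane, had 151, 149 and 194 CPM in M490-F09 cultures, against 84.6, 89.6 and 85.7 CPM in Control cultures. The same held for AQR1, which was higher than in Control (log2 fold change 0.92, SE 0.17, adjusted p = 0.000147) and did not differ past the threshold from the row A clones (-0.10, adjusted p = 0.763).

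Among the lower genes, PHO3, an acid phosphatase that thiamine represses, had 66.2, 69.5 and 34.3 CPM in M490-F09 cultures, against 237, 241 and 83.3 CPM in Control cultures. Within each set the M490-F09 values were the lower ones and no M490-F09 value reached a Control value (log2 fold change -1.68, SE 0.29, adjusted p = 5.65e-05), with log2 fold changes of -0.88 over the other 24 clones, a call lost without M490-F09 replicate 1 (adjusted p = 0.0624) or 3 (0.074), and -0.26, adjusted p = 0.621, over the row A clones. The joined row of ANB1 and HYP2, the hypoxic and aerobic forms of translation factor eIF5A, had 21.1, 24.7 and 41.1 CPM in M490-F09 cultures, against 60.6, 57.8 and 81.5 CPM in Control cultures. The groups were separate (log2 fold change -1.23, SE 0.18, adjusted p = 1.95e-06). A second joined row of both genes, chosen after its values were seen, had 506, 499 and 381 CPM in M490-F09 cultures, against 431, 409 and 516 CPM in Control cultures and did not pass (0.05, adjusted p = 0.866). Neither row can be assigned to a single gene. RAS1, a GTPase that couples nutrients to growth, had 30.3, 27.9 and 30.9 CPM in M490-F09 cultures, against 51.2, 50.7 and 67.5 CPM in Control cultures and fell (log2 fold change -0.91, SE 0.13, adjusted p = 1.77e-06). Over the other 24 clones its log2 fold change was -0.38, and it did not pass without M490-F09 replicate 2 (adjusted p = 0.0615) or 3 (0.09). Over the row A clones RAS1 did not pass (-0.16, adjusted p = 0.472). URA2, which begins pyrimidine synthesis, had 516, 569 and 548 CPM in M490-F09 cultures, against 801, 845 and 1424 CPM in Control cultures. Its groups did not overlap, and Control replicate 3 was the highest library (log2 fold change -0.85, SE 0.18, adjusted p = 0.00109). URA2 did not pass against the row A clones (-0.19, adjusted p = 0.541).

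Ribosome biogenesis, the making of ribosomal RNA and subunits in the nucleolus, was the list with the most lower genes. Of its 82 genes 50 fell and 0 rose, where 7.46% of all genes fell. The median log2 fold change was -0.47 against 0.00 over all genes. Summed levels of the list were 4744, 4815 and 7432 CPM in M490-F09 libraries, against 6232, 6164 and 12480 CPM in Control libraries. The sum was thus higher in the resubmitted library of both groups, and lower in M490-F09 within each set. KRE33, an RNA acetyltransferase of the small subunit, had 35.1, 37.7 and 61.9 CPM in M490-F09 cultures, against 61.4, 63.5 and 117 CPM in Control cultures (log2 fold change -0.83, SE 0.16, adjusted p = 0.000253). NOP14, a component of the small-subunit processome, had 44.3, 43.5 and 66.9 CPM in M490-F09 cultures, against 65.5, 69.5 and 153 CPM in Control cultures (log2 fold change -0.82, SE 0.18, adjusted p = 0.00143). For both genes the resubmitted M490-F09 library overlapped the first-set Control libraries. Leaving out Control replicate 3 brought the lower genes to 16, and leaving out M490-F09 replicate 3 brought them to 31. Against the other 24 clones 58 members were lower (median -0.41), where 6.25% of all genes were lower. Against the row A clones, where 0.652% of all genes were lower, 3 were lower (median -0.26), UTP9, NOC3 and DIP2, which were named after their values were seen. UTP9 and NOC3 kept that call only without M490-F09 replicate 3, and DIP2 lost it without any single M490-F09 library (adjusted p = 0.0603 to 0.158). Of 57 cytosolic ribosomal protein rows 1 was lower and 0 higher, 1 of both joined rows of RPL31A and RPL31B (-0.46, adjusted p = 0.0399), which did not pass without 5 of the 6 libraries.

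Many mitochondrial ribosomal protein and proteasome genes were slightly higher than in Control. Of 63 mitochondrial ribosomal proteins 37 were higher and 0 lower (median 0.24), and of 35 proteasome genes 26 were higher and 0 lower (median 0.24), where 8.6% of all genes were called higher. In a fit of the 6 libraries alone 19 and 13 passed. MRPL35, of the large mitochondrial subunit, had 81.2, 74.6 and 80.9 CPM in M490-F09 cultures, against 59.5, 59.2 and 62.8 CPM in Control cultures (log2 fold change 0.38, SE 0.08, adjusted p = 0.00124), and RSM27, of the small one, had 38.8, 34.2 and 39.5 CPM in M490-F09 cultures, against 28.5, 27.6 and 29.7 CPM in Control cultures (log2 fold change 0.39, SE 0.08, adjusted p = 0.000529). PRE6, an alpha subunit of the proteasome core, had 232, 218 and 221 CPM in M490-F09 cultures, against 174, 164 and 177 CPM in Control cultures (log2 fold change 0.38, SE 0.05, adjusted p = 9.03e-07). None of the 3 genes overlapped between the groups. Against the other 24 clones 9 mitochondrial ribosomal proteins and 6 proteasome genes were higher, and against the row A clones 0 of each, with medians of 0.02 and -0.03. Of all genes 4.76% and 0.691% were higher in these comparisons. The count of 37 fell to 23 without Control replicate 1 or 2 and to 24 without M490-F09 replicate 1. Of 25 heat shock chaperones 11 rose and 0 fell. They included HSP60, the mitochondrial chaperonin, with 1520.4, 1724.5 and 2158 CPM in M490-F09 cultures, against 1011, 1225 and 1199 CPM in Control cultures (log2 fold change 0.64, SE 0.15, adjusted p = 0.0024). The chaperone count was 3 without Control replicate 1, 5 without M490-F09 replicate 3 and 7 without M490-F09 replicate 2, and 0 members passed against the other 24 clones.

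Sterol synthesis fell in part. ERG3, the sterol desaturase of late ergosterol synthesis, had 509, 539 and 483 CPM in M490-F09 cultures, against 879.6, 911 and 753.5 CPM in Control cultures. All M490-F09 values were below all Control values (log2 fold change -0.73, SE 0.10, adjusted p = 1.77e-06), with log2 fold changes of -0.36 over the other 24 clones, not past the threshold without M490-F09 replicate 3 (adjusted p = 0.0549), and 0.01 over the row A clones. Where 8.6% of all genes rose and 7.46% fell, 9 of the 18 genes of late ergosterol synthesis fell and 0 rose (median -0.29). The lower ones numbered 6 without M490-F09 replicate 3. Against the other 24 clones, where 6.25% of all genes were lower, 8 of these genes were lower, and against the row A clones 0. HEM13, the oxygen-dependent heme enzyme, had 82.8, 95.4 and 104 CPM in M490-F09 cultures, against 119, 124 and 172 CPM in Control cultures and fell without overlap (log2 fold change -0.55, SE 0.11, adjusted p = 0.000539). LEU9, an isopropylmalate synthase of leucine synthesis, had 67.8, 70.3 and 81.3 CPM in M490-F09 cultures, against 103, 109 and 117 CPM in Control cultures. LEU9 fell (log2 fold change -0.59, SE 0.10, adjusted p = 4.18e-05) together with 7 other genes of the 46 of Gcn4-controlled amino acid synthesis, while 1 rose. The lower members of that list numbered 2 without M490-F09 replicate 1 or 3, and 3 without Control replicate 2 or 3. Against the row A clones 1 of the 46 was lower, BAT1 (-0.34, adjusted p = 0.00563). ITR1, the inositol importer, had 249, 255 and 244 CPM in M490-F09 cultures, against 353, 348 and 452 CPM in Control cultures and fell as well (log2 fold change -0.61, SE 0.10, adjusted p = 4.07e-05). Against the row A clones, where 1.34% of all genes passed, 0 of 16 inositol and phospholipid genes and 0 of 10 hypoxic genes passed, the lists of ITR1 and HEM13.

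**Figure D5:**
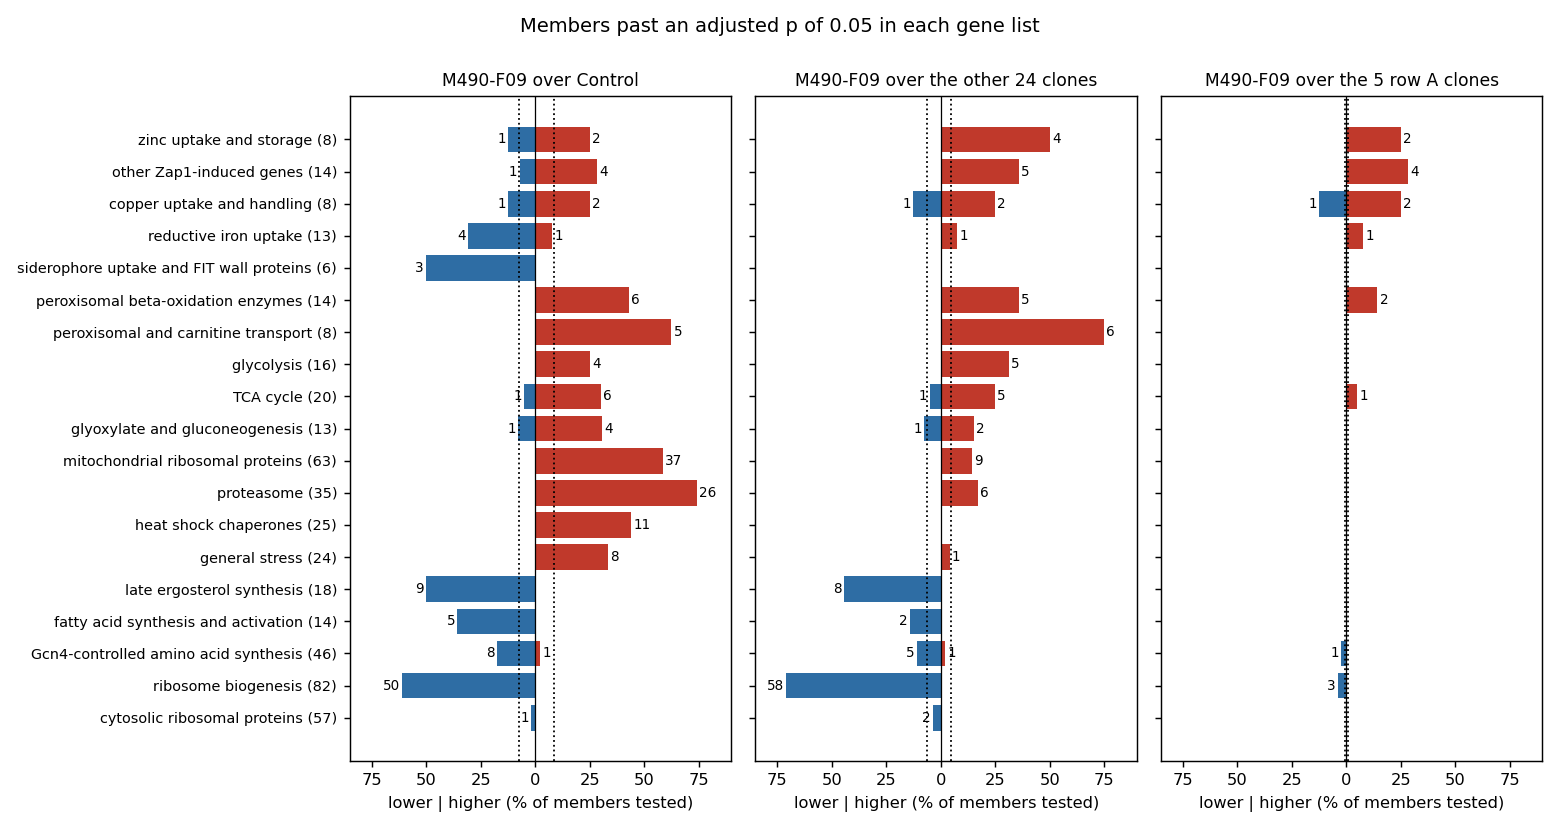
Share of the tested members of 19 gene lists that were past an adjusted p of 0.05, lower to the left and higher to the right (horizontal axis, percent), for M490-F09 over Control, over the other 24 clones and over the 5 other clones of row A, with counts beside the bars and dotted lines at the share of all genes. The ribosome biogenesis bar holds 50 lower genes over Control and 3 over the row A clones, whereas the zinc lists keep 2 and 4 higher members there.

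The genes past the threshold in all 3 comparisons included, besides the zinc, copper and peroxisomal genes above, MRS3, a mitochondrial iron carrier, with 83.4, 80.5 and 90.96 CPM in M490-F09 cultures, against 63.7, 59.4 and 66.2 CPM in Control cultures (log2 fold change 0.43, SE 0.05, adjusted p = 6.01e-09; row A clones 0.26). These values did not overlap. On the lower side were GAL80, the repressor of the galactose genes, with 672, 686 and 642 CPM in M490-F09 cultures, against 759.5, 848 and 759 CPM in Control cultures (-0.24, adjusted p = 0.0437; row A clones -0.28), and the nucleolar genes NOC3 (-0.59, adjusted p = 0.000147; row A clones -0.35) and DIP2 (-0.53, adjusted p = 0.000306; row A clones -0.34). GAL80 overlapped in none of the libraries but kept its call only without Control replicate 1 or M490-F09 replicate 3. MRS3 was chosen after its values were seen.

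The size of the difference from Control also changed between the library sets for other genes described above. The resubmitted set gave the larger one for CIT2 (1.12, against 0.43 in the first), AQR1 (1.18 and 0.78), PEX18 (0.68 and 0.21), FOX2 (0.53 and 0.11), URA2 (-1.38 and -0.60), NOP14 (-1.19 and -0.62), ITR1 (-0.89 and -0.47) and IZH1 (-1.28 and -0.32). The first set gave the larger one for PHO3 (-1.82, against -1.28 in the resubmitted), MF(ALPHA)1 (-0.88 and -0.33) and ARN2 (-0.56 and -0.07). For TSA1 the sign differed, at 0.47 in the first and -0.09 in the resubmitted libraries. The resubmitted values of these 12 genes rest on a single library of each group. The spread within that set could not be estimated, so the differences between the sets are given as sizes only.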

How the data were processed

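Polyadenylated RNA of 78 BY4742 libraries was sequenced, and the authors deposited whole-number counts per gene without normalization. Per the series' design text and the submitters' processing notes, reads were trimmed and deduplicated by molecular identifier by fastp 0.23.1, mapped by STAR 2.5.2b and assigned to genes by featureCounts of Subread 1.5.2. The notes name build R64, whereas per the file headers the counted features sit on 212 contigs that R64 does not have and on 24 construct sequences, so no coordinates or sequences are given. Whether counting used strand is not given in the sources used here. Of 5229 gene rows 5058 matched 1 R64 locus, 126 join several genes and 45 did not match. Rows that join near-identical genes are uncertain. An unnamed row pools the constructs (2.47% of counts in M490-F09 and 0.412% in Control on average) and a row named UNDEF pools other features (2.32% and 2.38%). Both stayed out of library sizes and tests.

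The tests used edgeR 4.0.16 under R 4.3.3 (TMM scaling, filterByExpr by group, quasi-likelihood test, 5212 genes kept and 17 left out). All 78 libraries entered 1 fit with terms for group and library set, with 51 residual degrees of freedom. Each standard error is the log2 fold change divided by the square root of its F, and CPM values are TMM-scaled. The log2 fold change in each set came from a fit with a term for each group within each set (26 residual degrees of freedom). Each group had a single resubmitted library there, so the spread came from replicates 1 and 2 of the first set alone. Differences between the sets are therefore given without a p-value. The tests were tried on simulated counts with the same spread for every gene and the same set effect in every group. Such counts cannot show how the tests behave where the sets differ by group. Python 3.11.15 with pandas 2.3.3, scipy 1.17.1 and matplotlib 3.10.9 made the summaries and figures.

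Named genes were up to 15 a side against Control with at least 10 CPM and no overlap, genes beyond all 75 other libraries, and up to 6 changed members of a list (all of the zinc and peroxisomal lists). The 43 gene lists and the members were chosen with earlier results of these data known. Labels call the replicates biological and share replicate numbers across groups. Deviations from the group means correlated between same-numbered M490-F09 and Control libraries (r = 0.65, 0.53 and 0.70), which follows the library sets, since the difference of replicates 1 and 2 correlated at 0.20. Replicates 1 and 2 differed by a chi-square per gene of 6.73 in M490-F09 and 7.82 in Control, against 77.4 to 134 across sets, so none was taken as a duplicate. Alternatives were DESeq2 1.42.0, RLE size factors, no filter, the first set alone, no set term, a replicate block, plate rows as separate batches, the 6 libraries alone and leaving out each library.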

Additional observations from a re-analysis of the deposited data

How the results depend on the processing

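Against Control, 837 genes passed in the fit of all libraries, 1549 in the first set alone (794 higher, 755 lower) and 138 without the library set term (95 higher, 43 lower). Leaving out 1 of the 6 libraries gave 458 to 710 genes, 221 to 369 higher and 176 to 381 lower, and the 6 libraries alone gave 249 higher. Against the other 24 clones the 574 genes became 1399 (681 higher, 718 lower) in the first set alone, 39 (25 and 14) without the set term and 169 to 231 (90 to 94 and 77 to 137) without 1 M490-F09 library. Against the row A clones the 70 genes became 1315 (625 and 690) in the first set alone, 23 (16 and 7) without the set term, 294 (106 and 188) with plate rows as separate batches, 117 with 77 lower under DESeq2, and 25 to 49 (17 to 28 and 8 to 21) without 1 M490-F09 library. In the first set alone replicates 1 and 2 are the only libraries of each group, which lie closer together than libraries of different sets. The replicate block in place of the set term gave 825, 558 and 66 genes in the 3 comparisons and moved no count by over 1.5 times. Without the set term, the higher members were 9 mitochondrial ribosomal proteins, 9 proteasome genes, 3 beta-oxidation enzymes and 1 transport gene, and 1 ribosome biogenesis gene was lower. The 6 libraries alone gave 19 mitochondrial ribosomal proteins and 13 proteasome genes. Leaving out 1 library gave 23 to 35 mitochondrial ribosomal proteins, 2 to 5 transport genes, 3 to 5 beta-oxidation enzymes and 16 to 53 ribosome biogenesis genes. Of the zinc uptake list 4 members rose in the first set alone, where FET4 had a log2 fold change of -0.14 and passed, against 0.05 in the fit of all libraries. Signs of other small values that did not pass turned as well. The remaining causes were not tested. Over single genes and smaller lists under all alternatives, 4316 values kept their call or value, 501 lost a call, 74 gained one and 219 moved. Of the totals and main lists 155 values kept to within 1.5 times (the construct share to within the replicate spread) and 66 moved. The difference in construct share was 2.06 percentage points and 1.95 to 2.26 without 1 library. With 3 libraries a group, changes of the size of the median call (log2 0.30) are close to what the set term and single libraries decide.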

Other observations

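Among genes of defence against peroxide, some differed from Control. Of 25 genes of peroxide and thiol defence 8 rose and 1 fell, where 8.6% and 7.46% of all genes did. AHP1, a thiol peroxidase, had 613, 642 and 494 CPM in M490-F09 cultures, against 399, 430.1 and 365 CPM in Control cultures. These values did not overlap (edgeR's quasi-likelihood test with Benjamini-Hochberg adjustment, log2 fold change 0.54, adjusted p = 1.64e-05), while AHP1 did not pass against the row A clones (-0.03, adjusted p = 0.868). The mitochondrial peroxiredoxin PRX1 (0.32, adjusted p = 0.00103) and the peroxidase HYR1 (0.25, adjusted p = 0.00109) rose by less. The count of higher members was 3 without Control replicate 1, 4 without M490-F09 replicate 3 and 5 without Control replicate 2, and against the other 24 clones 1 member was higher. Among 24 nitrogen genes 3 rose and 2 fell, shares near those of all genes. GDH2, which releases ammonium from glutamate, had 496, 476 and 422 CPM in M490-F09 cultures, against 360.4, 366 and 337 CPM in Control cultures and rose (0.39, adjusted p = 0.000306). CAR1, the arginase, had 104, 95.5 and 75.2 CPM in M490-F09 cultures, against 133, 133 and 108 CPM in Control cultures and fell (-0.45, adjusted p = 0.0042). The higher members numbered 1 without Control replicate 1 or M490-F09 replicate 2 and 2 without Control replicate 3, and 1 lower member remained without M490-F09 replicate 3.

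Several of the genes higher in all 3 comparisons lie next to each other in the R64 order of protein-coding genes. Among these 21 genes there were 4 such pairs, ADH4 with ZRT1, ZAP1 with LOG1, ZPS1 with FRE7, and MRS3 with the uncharacterised YJL132W, and there were 0 among the 14 lower genes. LOG1 had 431, 396 and 441 CPM in M490-F09 cultures, against 349, 348 and 338 CPM in Control cultures. Its groups did not overlap (log2 fold change 0.29, adjusted p = 0.000215), and its neighbour ZAP1 had a log2 fold change of 0.92. Over the row A clones LOG1 did not pass without M490-F09 replicate 1 (adjusted p = 0.0717) or 3 (0.168). YJL132W had 105, 97.6 and 84.8 CPM in M490-F09 cultures, against 74.7, 79.4 and 63.4 CPM in Control cultures and was likewise separate (0.40, adjusted p = 6.51e-05). These pairs were noticed after the values were seen and were not tested. By their locus names only ZAP1 and LOG1 lie on opposite strands. The files' strand setting is not given, and whether any reads of these neighbours overlap was not examined. In the other pairs both genes lie on the same strand, where reads are separated by position and not by strand.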
